A study of Mus musculus with 6 samples.

Results

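Ifng, Il2, Il4, Il10 and Cd40lg encode 4 cytokines known mainly as products of lymphocytes and the ligand of the receptor CD40, and their transcripts were measured by real-time PCR arrays in cultured mouse skin fibroblasts. The 5 genes were taken by their symbols in the normalized data and make up 5 of the 84 wound healing genes of the array. The cells were primary dermal fibroblasts of neonatal C57BL/6 mice between passages 3 and 5, grown to a monolayer and scratched, with mitomycin C, which stops proliferation, in both groups. The control group received medium alone, and the other group received 2,4-dermatan sulfate (DS), a glycosaminoglycan of the ascidian Styela plicata, at 50 µg/mL, a dose that the labels list among others without assigning it to a sample. The time of treatment is given as 24 h, 48 h and 72 h in different places of the description and is therefore uncertain. Each group had 3 cultures, stated to be biological triplicates, and each culture had its own array of 96 wells.

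Interferon gamma, encoded by Ifng, is made chiefly by T cells and natural killer cells, activates macrophages and restrains collagen synthesis by fibroblasts. Interleukin 4 acts in the opposite sense on many of the same cells, drives alternative activation of macrophages and stimulates matrix production by fibroblasts, while interleukin 2 is a growth factor of T cells and interleukin 10 damps inflammation. CD40 ligand is a membrane protein of activated T cells and platelets that engages CD40 on B cells, macrophages and fibroblasts.

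The measured value was the threshold cycle (CT), the point of the amplification at which fluorescence passes a set level, so that less template gives a later CT, and a shift of 1 cycle is a 2-fold difference at full efficiency. A gene was called detected in an array at a CT of 36 or under. Of the 89 gene assays, 26, 25 and 25 were detected in the 3 control arrays, and 60, 60 and 58 in the 3 DS arrays. The genes used for normalization, Hsp90ab1, Ccl7 and Egfr, had a mean CT of 30.4, 30.4 and 30.2 in the control arrays and 30.3 in each DS array. An array of PCR wells has no sequencing depth, and the number of arrays limits its precision.

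The cell type on the label was compared with its markers on the array. Of 6 fibroblast markers, the collagen gene Col5a2 was the only one detected in the control arrays, at a CT of 23.8, 24.1 and 23.3, and Col1a1, Col1a2, Col3a1, Tagln and Acta2 gave no CT there. In the DS arrays 5 of the 6 were detected, all but Acta2, and the most abundant was Tagln, which encodes an actin-binding protein of contractile cells. The summed level of the fibroblast markers relative to the normalizing genes, on the log2 scale, was 6.61, 6.30 and 6.87 in control and 16.22, 18.30 and 17.68 in DS. In the control arrays 5 of the 6 markers thus gave no CT, as did the housekeeping genes Actb, B2m, Gapdh and Gusb, and the label could not be checked on them there. The array had no assay for lymphocyte markers such as Cd3e, Cd4, Cd8a and Ptprc, so the presence of lymphocytes could not be examined apart from the 5 genes themselves.

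Of the 5 genes, 1 (Ifng) was detected in both groups, 1 (Cd40lg) in DS arrays alone, 1 (Il4) in control arrays alone, and 2 (Il2 and Il10) in neither group. Among all 84 wound healing genes these patterns made up 21.4%, 46.4%, 8.33% and 23.8%, respectively. The 3 detected genes were tested, and with a threshold of 0.05 on the adjusted p, 2 had more template in DS and 1 had less. By the same threshold, the share called higher among all 64 tested genes was 71.9% and the share called lower was 20.3%. Cd40lg and Il4 passed the filter through the group in which they were detected, so their calls follow from detection. With the 5 housekeeping genes as normalizers 17 genes were higher and 39 lower, with Actb and Gapdh 10 and 52, and in both cases Ifng and Cd40lg turned negative. The groups did not overlap in any of the 3 genes, nor did they in 93.8% of the tested genes. The 5 genes were not tested as a set, and the values of each follow.

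**Figure D1:**
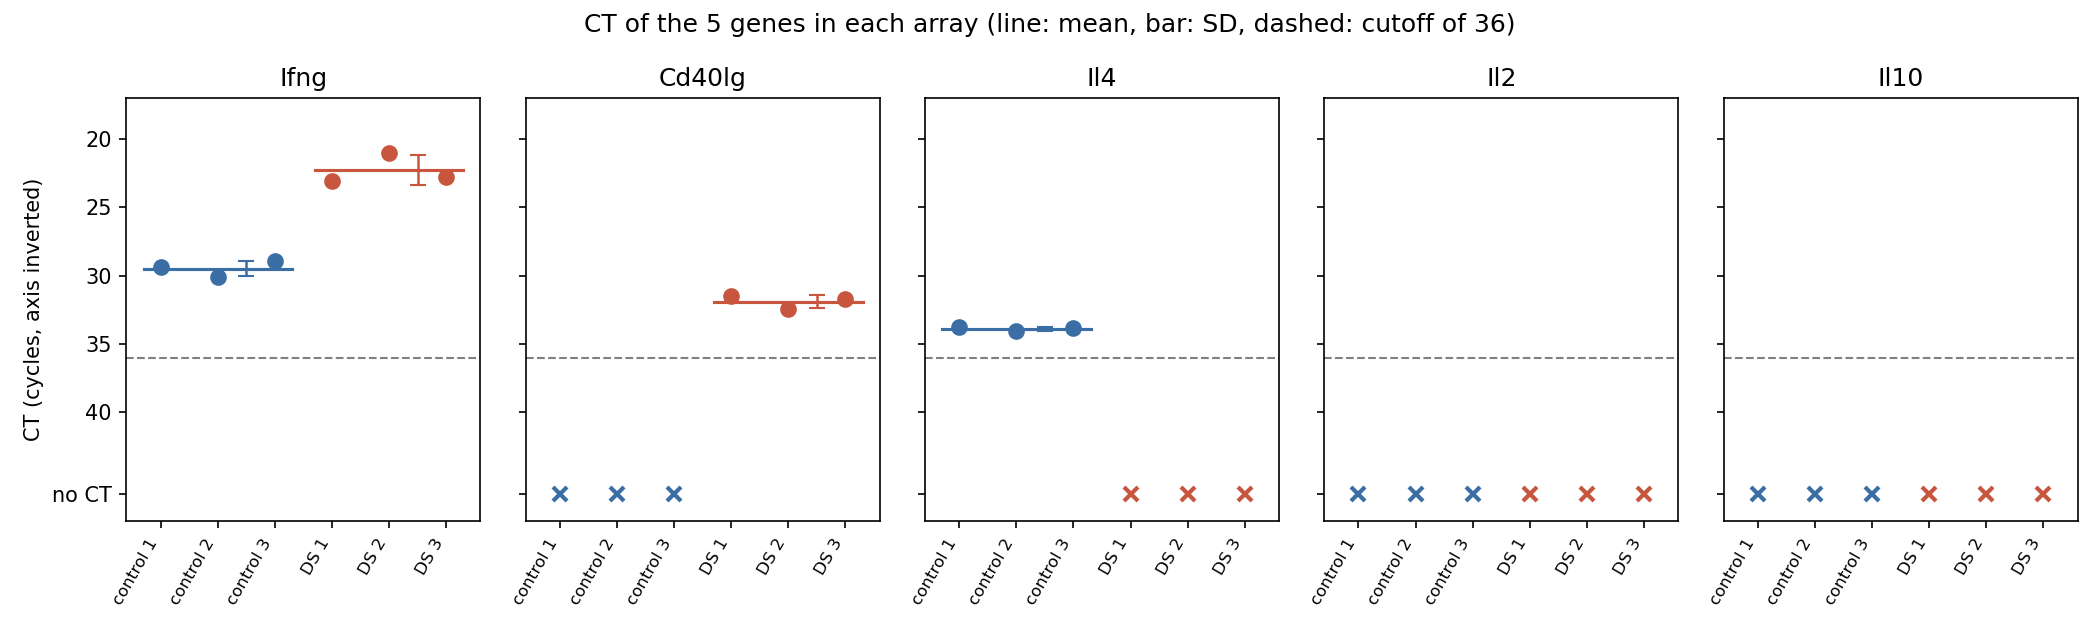
CT of Ifng, Cd40lg, Il4, Il2 and Il10 (vertical axis in cycles, inverted so that more template is higher) in each of the 3 control and 3 DS arrays (horizontal axis), without normalization. Points are arrays, crosses are wells without a CT, lines and bars are the mean and SD of a group, and the dashed line is the cutoff of 36; the Ifng points of DS lie between 21.00 and 23.04, all above those of control, whereas Cd40lg and Il4 each have points in a single group.

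The gene for interferon gamma lies on the plus strand of chromosome 10 (chr10:118441046-118445894, GRCm38.p6). Ifng gave a CT of 29.38, 30.11 and 28.96 in the control arrays and of 23.04, 21.00 and 22.81 in the DS arrays. Every DS array was earlier than every control array, by at least 5.92 cycles, and DS replicate 2 was the earliest of all. The DS arrays spanned 2.04 cycles and the control arrays 1.15, so the gap between the groups exceeded the range within either. After subtraction of the mean CT of the normalizing genes, with the sign reversed (−ΔCT, a log2 scale), the level was 0.99, 0.24 and 1.22 in control and 7.24, 9.29 and 7.49 in DS. By limma, Ifng had a log2 fold change of 7.19 with a standard error of 0.571 (adjusted p = 2.7e-06, n = 3 per group), higher in 3 of 3 DS arrays than in any control array. The exact permutation test on this gene alone gave a two-sided p of 0.1, the smallest that 3 arrays against 3 can give. In bulk cultures, a change in the share of cells that express a gene and a change in RNA per cell cannot be told apart.

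Ifng ranked 22 of the 64 tested genes by log2 fold change, and the median over these genes was 4.40, but 46 of the 64 values are bounds. Ifng itself stayed at 7.19 under other cutoffs and filters. The median rose to 6.07 with a cutoff of 40 and to 10.21, above Ifng, with no cutoff and absent CT set to 45. Both of these medians were taken over 73 tested genes. The median fell to 3.86 over 63 genes with a cutoff of 35 and to 2.01 over 84 genes with no filter. Over the 16 genes detected in all 6 arrays it was 1.43. The direction depended on the normalizing genes. For Ifng, a reference of Actb and Gapdh gave −4.70, and the set of 5 housekeeping genes gave −0.43. The adjusted p of Ifng by limma ran from 8.38e-29 to 0.488 over its alternatives of either direction. Of the 5 housekeeping genes, Actb, B2m, Gapdh and Gusb gave no CT in control, and Gapdh gave none in DS either. Values under both sets therefore rest on the cutoff, and a p from either treats it as measured. This holds for the 0.488, which came from the set of 5, and the p for Actb and Gapdh is not given. Those sets shifted the median of all tested genes to −3.23 and −7.49, and a reference made of the median over genes present in every array shifted it to 7.35. In the test of the study's methods, run on the linear scale, the p for Ifng was 0.109 before adjustment.

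Cd40lg, on chromosome X (chrX:57212143-57224042, GRCm38.p6), encodes CD40 ligand. It gave no CT in the 3 control arrays and a CT of 31.53, 32.44 and 31.74 in the 3 DS arrays. The DS arrays lay within 0.91 cycles of one another, and the latest of them was 3.56 cycles before the cutoff. With the control arrays set to the cutoff, −ΔCT was −5.63, −5.65 and −5.82 in control and −1.25, −2.15 and −1.44 in DS. The log2 fold change was therefore a bound, at least 4.09, with 3 of 3 DS arrays above the cutoff level (n = 3 per group). With no control value measured, a test against the cutoff restates that Cd40lg was detected in DS alone, and its p is not given. The bound ranked 33 of 64 and lay below the median of 4.40. With a cutoff of 40 it was 8.09, and with absent CT set to 45 it was 13.09. Both lay above the medians of 6.07 and 10.21, which were taken over 73 genes. Its sign changed when normalized to the 5 housekeeping genes (−3.54) or to Actb and Gapdh (−7.80). In control, those values set the cutoff against reference genes that, apart from Hsp90ab1 in the set of 5, are themselves at the cutoff. They are therefore neither measured changes nor bounds.

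The genomic DNA control, a well that amplifies an untranscribed stretch of mouse DNA, also gave a CT in the DS arrays alone, at 33.08, 34.02 and 33.78. Cd40lg came 1.55, 1.58 and 2.04 cycles before it in the same arrays, a mean of 1.72 ± 0.275 cycles (SD, n = 3). Both wells were earliest in DS replicate 1 and latest in DS replicate 2. Ifng came 10.04, 13.02 and 10.97 cycles before the genomic DNA control and was earliest in DS replicate 2. The labels describe a DNAse step after extraction. Wells without reverse transcriptase are not among the deposited values, so the part of genomic DNA in the Cd40lg signal was not tested.

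Il4 lies on the minus strand of chromosome 11 (chr11:53612460-53618665, GRCm38.p6) and encodes interleukin 4. Its CT was 33.76, 34.05 and 33.83 in the control arrays, and none of the 3 DS arrays gave a CT. The control arrays lay within 0.29 cycles of one another, and the latest of them was 1.95 cycles before the cutoff. In −ΔCT the control level was −3.39, −3.70 and −3.65, and the cutoff gave −5.72, −5.71 and −5.70 in DS. The log2 fold change was −2.13 or lower, with all 3 DS arrays at the cutoff level and below the control arrays (n = 3 per group). The DS spread is that of the normalizing genes, since no Il4 value was measured there, and the p of a test against the cutoff is not given for the same reason as for Cd40lg. It ranked 53 of 64. The limit followed the cutoff, at −1.13 with 35, −6.13 with 40 and −11.13 with absent CT set to 45. With the reference made of the median over genes present in every array, the limit was 0.82 or lower, which leaves the direction undetermined, and the values normalized to Actb and Gapdh or to the 5 housekeeping genes were negative but, with Gapdh at the cutoff in both groups, are not limits.

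**Figure D2:**
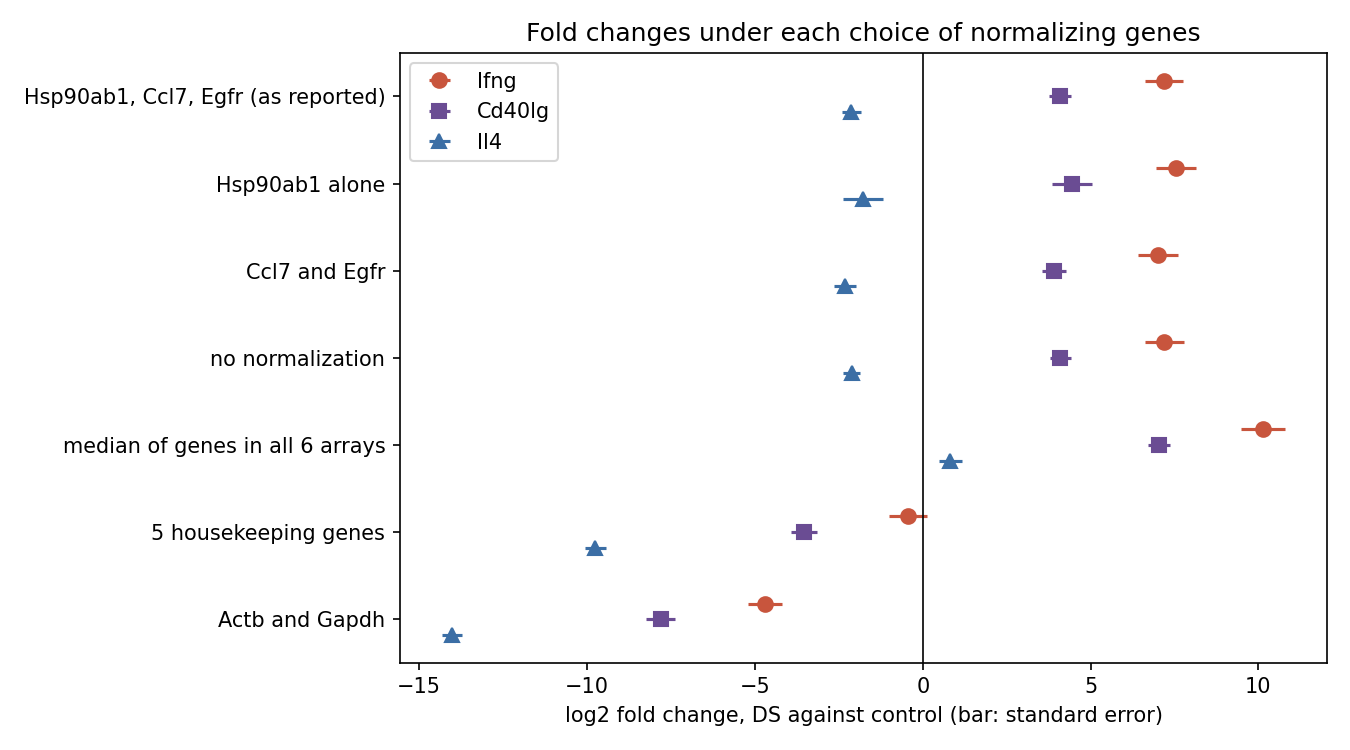
Log2 fold change of Ifng, Cd40lg and Il4, DS against control (horizontal axis), under each choice of normalizing genes (vertical axis). Points are fitted values, bars are standard errors, n = 3 arrays per group, and values of Cd40lg and Il4 rest on the cutoff in one group; Ifng and Cd40lg lie right of 0 in the upper 5 choices and left of it with the 5 housekeeping genes or Actb and Gapdh, and the Il4 point, an upper limit, lies right of 0 with the median of the genes in all 6 arrays.

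A difference between a pair of these genes within an array needs no normalizing gene, and this comparison was chosen after seeing the data. The CT of Il4 minus that of Ifng was 4.38, 3.94 and 4.87 cycles in control and at least 12.96, 15.00 and 13.19 cycles in DS, where Il4 was set to the cutoff. All 3 DS arrays exceeded the control arrays, and the mean rose by at least 9.32 cycles. No p is given, since Il4 in DS is the cutoff and the pair was chosen with the values known. Relative to the Il4 well, the Ifng well was thus earlier in DS whichever normalizing genes were used. For Cd40lg a like statement rests on cutoffs in both groups. The CT of Il4 minus that of Cd40lg was at most −2.24, −1.95 and −2.17 cycles in control and at least 4.47, 3.56 and 4.26 cycles in DS, a change of at least 6.22 cycles. With each gene detected in 1 group, the cutoff fixes the sign of these differences, so they restate the detection pattern. Such differences give the relation of a pair of wells and do not show which gene changed. The reverse transcription control wells, copies of one assay, also moved apart between the groups. The first was at least 6.44 cycles earlier in DS and the second at least 13.5 cycles later. What part such well-to-well differences have in the values of these pairs was not tested.

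Il2 (chr3:37120713-37125954, GRCm38.p6), the T cell growth factor, and Il10 (chr1:131019845-131024970, GRCm38.p6), the anti-inflammatory cytokine, were without a CT in all 6 arrays. The same held for 13.1% of the 84 wound healing genes, 11 in number, among them Acta2, Itga3, Itga6, Itgb5, Pdgfa, Tgfbr3, Tnf and Wisp1. They include the actin of myofibroblasts, 3 integrin subunits, a platelet-derived growth factor chain and a receptor for transforming growth factor beta. Il2 and Il10 therefore have no fold change, and any difference between the groups was below what the arrays could detect. The 3 positive PCR control wells gave no CT either, so a working reaction could not be checked apart from the genes that amplified.

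Bases upstream of the start sites are shown because Ifng came earlier in DS, Il4 gave a CT in control arrays alone and Il2 gave no CT. The RefSeq promoter table (build GRCm38.p6) matched 3 of the 5 genes, and Il10 and Cd40lg have no entry in it. Each line gives the 250 bases before the start site, 5′ to 3′ on the strand of the gene. The windows are chr10:118440796-118441045 (plus strand) for Ifng, chr3:37125955-37126204 (minus strand) for Il2 and chr11:53618666-53618915 (minus strand) for Il4. Capitals mark the core of the site bound by NFAT, the factor that calcium signals activate in T cells (GGAAA, searched on both strands and thus also seen as TTTCC), and the TATA box (TATAAA, sense strand).
Ifng: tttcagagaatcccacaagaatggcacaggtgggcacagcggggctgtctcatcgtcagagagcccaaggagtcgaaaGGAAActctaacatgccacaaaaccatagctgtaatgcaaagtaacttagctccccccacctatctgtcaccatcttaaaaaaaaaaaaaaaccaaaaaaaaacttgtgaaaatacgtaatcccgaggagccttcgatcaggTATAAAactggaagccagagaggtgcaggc
Il2: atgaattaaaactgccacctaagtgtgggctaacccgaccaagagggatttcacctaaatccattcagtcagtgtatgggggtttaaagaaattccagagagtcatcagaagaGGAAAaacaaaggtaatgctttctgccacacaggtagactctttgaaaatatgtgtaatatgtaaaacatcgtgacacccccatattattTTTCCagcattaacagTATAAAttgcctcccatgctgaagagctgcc
Il4: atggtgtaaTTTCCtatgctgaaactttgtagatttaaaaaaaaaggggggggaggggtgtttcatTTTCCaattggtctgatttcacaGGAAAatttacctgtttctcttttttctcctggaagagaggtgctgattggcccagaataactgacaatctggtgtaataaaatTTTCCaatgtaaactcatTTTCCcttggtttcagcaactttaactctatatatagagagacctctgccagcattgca
The NFAT core occurred once upstream of Ifng, from −172 to −168 relative to the start site, 2 times upstream of Il2 and 5 times upstream of Il4, and 55.6% of all 32851 promoter windows of this length hold it. TATAAA began at −30 for Ifng and at −31 for Il2 and was not in the Il4 window, and 7.59% of the windows hold it. Only this exact form of the TATA box was searched. The Il4 window holds tatatata near its end, so the absence of TATAAA does not show that Il4 lacks a TATA box. The AP-1 motif TGANTCA (both strands) was in none of the 3 windows and in 6.75% of all. None of these matches overlap. They describe the letters of each window, and no promoter activity was measured.

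The 12 other genes of the cytokine group on the array were chemokines, colony stimulating factors, further cytokines and the receptor subunit Il6st, without the normalizing gene Ccl7. Of these 12, 9 were tested, with 7 called higher and 2 called lower, and a median log2 fold change of 5.39 that includes 7 bounds. Of all 64 tested genes 71.9% were called higher and 20.3% lower, so these counts are near the background. The calls of the 7 genes with bounds follow from detection in a single group. The median was 4.09 over the 3 tested genes of the present group, including 2 bounds, and 4.40 over all 64. The other 3, Cxcl5, Il6 and Tnf, stayed over the cutoff or without a CT in every array. Those lower in DS were Ccl12, a monocyte chemoattractant, at −16.92 on the log2 scale (adjusted p = 9.64e-10, limma, standard error 0.374, all 3 DS arrays below control), and Cxcl3, a neutrophil chemoattractant, with −12.58 or lower. Il4 was thus 1 of 3 cytokine genes with less template in DS. When normalized to the 5 housekeeping genes, the counts were 3 higher and 6 lower, and when normalized to Actb and Gapdh they were 2 and 7.

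**Figure D3:**
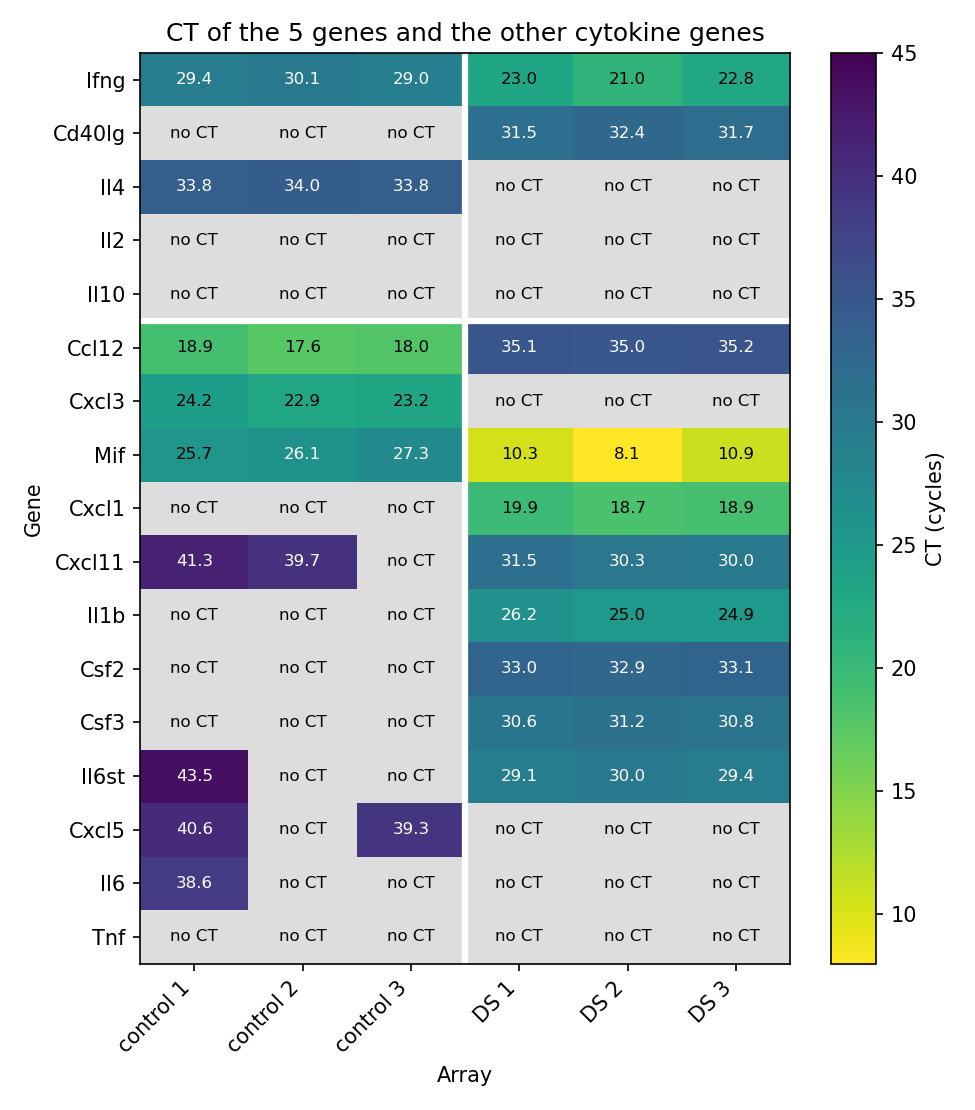
CT in cycles (colour and printed value) of the 5 genes, above the white line, and of the 12 other cytokine group genes (rows) in the 6 arrays (columns), without normalization, with grey where a well gave no CT. Among genes with a CT of 36 or under in some array, Il4, Cxcl3 and Ccl12 have earlier values in the control arrays, and Ifng, Cd40lg and 7 of the other 12 in the DS arrays; Cxcl5 and Il6 have values in control arrays alone, all over 36.

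Genes known to respond to these ligands were read beside them. Of the interferon gamma responses on the array, Cxcl11, a chemokine that attracts activated T cells, gave a CT of 41.33, 39.67 and none in control and of 31.51, 30.27 and 30.03 in DS, a log2 fold change of at least 5.39 that turned to −2.24 with the 5 housekeeping genes. B2m, the light chain of class I histocompatibility molecules and itself a housekeeping gene of the array, gave no CT in control and 22.04, 21.91 and 19.89 in DS. DS replicate 2, the array with the earliest Ifng, had the middle value of both.

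Of 3 genes that CD40 engagement induces in fibroblasts, Ptgs2, the inducible cyclooxygenase, had a CT of 25.12, 23.71 and 24.00 in control and of 10.39, 9.32 and 10.49 in DS. Cxcl1, a neutrophil chemoattractant, had none in control and 19.85, 18.66 and 18.95 in DS, and the inflammatory cytokine Il6 had a single CT of 38.61, in control replicate 1. Thus 2 of these 3 genes were higher in DS and the remaining gene was not detected. The 3 signal transducers read, among them Stat3 and Mapk3, which many receptors share, were detected in DS arrays alone. This pattern was that of 46.4% of all 84 genes. All 3 were called higher, which follows from detection. With most of the 64 tested genes higher in DS, these counts are near the background. None of the 96 wells carried Cd40 or a receptor chain of interferon gamma or of interleukin 2, 4 or 10, among 9 symbols searched.

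**Figure D4:**
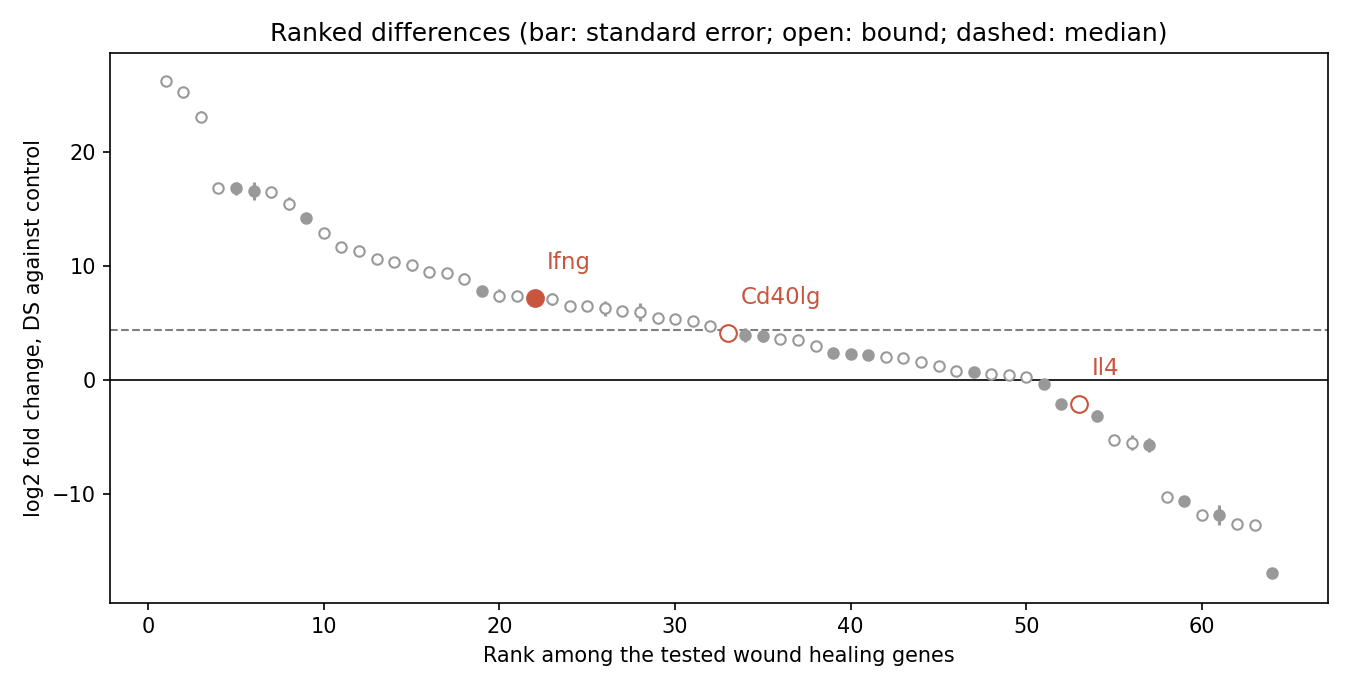
Log2 fold change, DS against control (vertical axis), of the 64 tested genes in order of size (horizontal axis), with Ifng, Cd40lg and Il4 in red and the median of 4.40 dashed. Bars are standard errors, n = 3 arrays per group, and open circles are bounds computed against the cutoff; Ifng is 22nd and Cd40lg 33rd of 64, and both turned negative with the 5 housekeeping genes or Actb and Gapdh, and Il4 is 53rd, with an upper limit above 0 under the median reference.

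Likeness to other genes was measured as the root mean square difference between CT profiles over the 6 arrays, each centred on its own mean, among 66 genes. The closest to Ifng were Ctgf (0.575 cycles), a matricellular growth factor, Tgfa (0.804 cycles), a ligand of the epidermal growth factor receptor, and Col3a1 (0.871 cycles), a fibrillar collagen. Each of those 3 was detected in DS arrays alone, so their control values are the cutoff, whereas Ifng was measured in every array. The closest to Cd40lg were Plg, the precursor of plasmin (0.292 cycles), Fga, a fibrinogen chain (0.421 cycles), and Csf3, the granulocyte colony stimulating factor (0.537 cycles). The genomic DNA control lay 0.876 cycles from Cd40lg and 2.59 cycles from Ifng. The closest to Il4 were the integrin subunits Itga4 (0.486 cycles) and Itga5 (0.729 cycles), both measured in all arrays, and the chaperone gene Hsp90ab1 (0.936 cycles), one of the normalizing genes. The control part of the profiles of Cd40lg, its 3 neighbours and the genomic DNA control, and the DS part of the profile of Il4, are the cutoff and not measured values.

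Of 6 markers of other cell types, 3 were detected in DS arrays alone, a pattern that 46.4% of all 84 genes had. Of 3 epithelial markers, Itgb6 was detected, in DS arrays alone, at a CT of 10.04, 9.61 and 9.77, while Cdh1, the defining cadherin, lay over the cutoff and Itga6 gave no CT. The summed epithelial level relative to the normalizing genes, all from Itgb6, was 20.24, 20.68 and 20.53 on the log2 scale in DS, with none detected in control. Of 3 myeloid markers, Il1b and Ctsg were detected in DS arrays alone, and Tnf gave no CT. Ctsg lay close to the cutoff of 36, with a CT of 34.04, 35.52 and 34.79 in DS. Il1b was the most abundant, and the summed myeloid level was 4.06, 5.29 and 5.38 in DS, with none detected in control. Their part in the differences of Ifng, Cd40lg and Il4 was not tested.

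The 3 reverse transcription control wells hold copies of one assay for an artificial RNA added during cDNA synthesis, and they differed from one another within arrays. The first gave no CT in control and 29.56, 30.18 and 28.95 in DS, at least 6.44 cycles earlier in DS. The second gave 22.74, 21.68 and 23.00 in control, and in DS 39.69, none and 41.00, so with the cutoff of 36 it was at least 13.5 cycles later in DS. The third gave 38.03 and otherwise none in control and 32.77, 31.55 and 32.00 in DS. With a CT over 36 or absent set to 36, copies of one assay differed by at least 13.3, 14.3 and 13.0 cycles in the control arrays and by at least 6.44, 5.82 and 7.05 cycles in the DS arrays. The distances from the cutoff of Cd40lg (3.56 cycles) and Il4 (1.95 cycles) are smaller than the difference between copies in all 6 arrays. The gap of 5.92 cycles between the groups for Ifng is smaller than it in at least 5 of the 6, and in DS replicate 2 the second copy gave no CT at all. What part the well-to-well differences have in the values of the 5 genes was not tested, since each gene had 1 well per array. The gene of each well was taken from the files, and it could not be checked that every well held the assay named there.

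**Figure D5:**
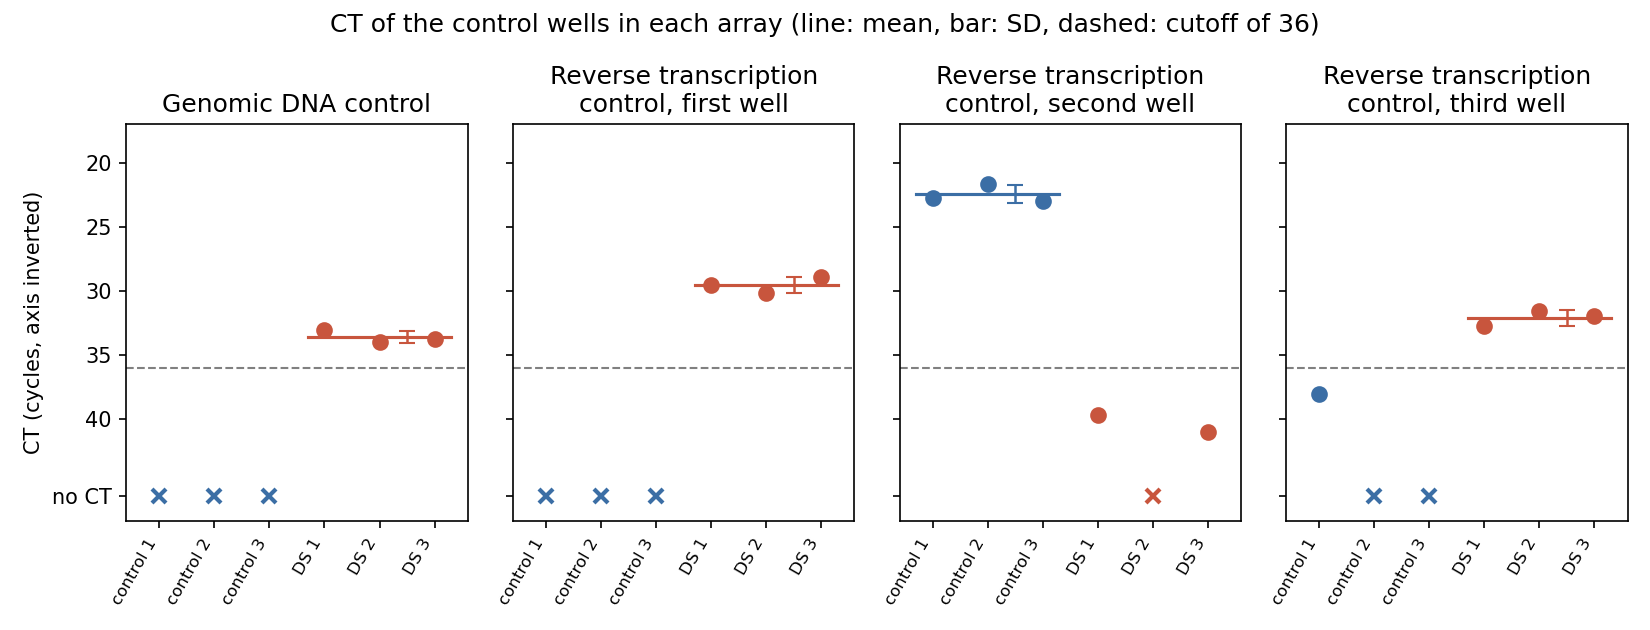
CT (vertical axis in cycles, inverted) of the genomic DNA control well and the 3 reverse transcription control wells in each array (horizontal axis), without normalization. Points are arrays, crosses are wells without a CT, lines and bars are the mean and SD of groups with 3 values, and the dashed line is the cutoff of 36; the second reverse transcription control is earlier in control arrays and the first and the third are earlier in DS arrays, although they are copies of one assay.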

How the data were processed

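Real-time PCR arrays were run on 3 control and 3 DS cultures. The authors deposited CT in cycles for each well, neither normalized nor cut off, and group averages as a ratio to the normalizing genes, 2 to the power of −ΔCT, which have no spread. Deposited ratios of the 5 genes differed by at most 0.00167% from those computed from the CT with the geometric mean of the normalizing CT.

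A CT over 36 or absent was set to 36, and each array's mean over Hsp90ab1, Ccl7 and Egfr was subtracted, with the sign reversed. The 64 of 84 genes with a CT of 36 or under in at least 1 array were fitted with limma 3.58.1 (lmFit, eBayes) in R 4.3.3, with two-sided p adjusted by Benjamini-Hochberg over the 64. The fit was also run on simulated data without a cutoff, which does not check it for genes with a group set to the cutoff. Where no array of a group was detected, the value is a bound whose standard error treats the cutoff as measured. Exact permutation tests used all splits of 3 against 3.

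The members and lists were chosen with earlier results of these data known. Named genes were the 5 members, the 3 genes most like each detected member, the genes without any CT, the other cytokines, response genes, control wells and cell type markers. Alternatives were other normalizers, cutoffs of 35, 40 and 45, other filters and tests, a replicate block, the deposited ratios and each array left out. Results for some single genes are left out of the text and counted in the totals. Gene positions and promoters are from RefSeq, and the positions of the PCR assays within the genes are not given. Figures were drawn with matplotlib 3.10.9.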

Additional observations from a re-analysis of the deposited data

Results flagged for a closer look

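Of the wells that measure no gene, 3 gave signal in the DS arrays, while in the control arrays each of these 3 had either no CT or one later than 36. The second reverse transcription control went the other way, and the positive PCR controls gave no CT. The genomic DNA control had a mean CT of 33.6 ± 0.488 (SD, n = 3) in DS. The first reverse transcription control had a mean CT of 29.6 ± 0.615 (SD, n = 3) in DS, and the third had 32.1 ± 0.617 (SD, n = 3).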

How the results depend on the processing

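With the 5 housekeeping genes as normalizers, Ifng became −0.43, Cd40lg −3.54 and Cxcl11 −2.24. In that setting 17 genes were higher and 39 lower in DS, among them 3 and 6 of the other cytokines. The adjusted p of Ifng (limma) ran from 8.38e-29 to 0.488 over its alternatives. The smallest came with a replicate block, where Ifng, Cd40lg and Il4 all had a standard error of 0.491. It therefore does not measure the spread of Ifng alone. The largest came with the 5 housekeeping genes and treats the cutoff as measured. With Actb and Gapdh, Ifng was −4.70, Cd40lg −7.80, Cxcl11 −6.50 and Il1b −1.28, with 10 genes higher and 52 lower, among them 2 and 7 of the other cytokines. Actb, B2m, Gapdh and Gusb gave no CT in control, and Gapdh none in DS, so both sets rest on the cutoff. With the median CT of the genes in all 6 arrays, Il4 was 0.82, an upper limit that does not show a rise. With only genes detected in all 6 arrays, 16 genes were tested, 8 higher and 6 lower, with 1 and 1 of the other cytokines. In the test of the study's methods, on the linear scale, the ratio of the group means for Ifng was 7.45 in log2 and not past the threshold (p = 0.109, or 0.131 adjusted, not an exact test). By that test 36 genes were higher and 9 lower without adjustment, and 27 were higher with it. The cause of these changes was not tested beyond the construction of each alternative.

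Ifng kept its direction and its side of the threshold in 18 of 22 alternatives with a test, Cd40lg in 19 of 21 and Il4 in 20 of 21, including each array left out. The count for Il4 includes the values normalized to the 5 housekeeping genes (−9.75) and to Actb and Gapdh (−14.02), which are not limits. For Cd40lg and Il4 the threshold adds nothing to detection in one group. The deposited ratios, which have no test, gave the same directions. A replicate block gave 45 genes higher and 13 lower. Array numbers do not pair the cultures in the labels.

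Within arrays, the bound for Ifng against Il4 was 8.32 cycles with a cutoff of 35, 13.3 with 40 and 18.3 with 45. For Cd40lg against Il4 it was 4.22, 14.2 and 24.2 cycles with 35, 40 and 45, added after seeing the data. Bounds grow with the cutoff by construction, and Il4 lies within 2.12 cycles of it on average.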

Other observations

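Of the 300 CT values in the 6 arrays, 23 were whole numbers to the 2 decimals given, 8 of 93 in control (8.60%) and 15 of 207 in DS (7.25%). Their number was 0, 3 and 5 in control replicates 1 to 3 and 1, 7 and 7 in DS replicates 1 to 3. The Ifng CT of 21.00 in DS replicate 2 is one of them.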
